A study of Mus musculus with 8 samples.

Results

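Imprinted growth genes are genes of which one parental copy is silenced and which act on growth, on cell number or on the balance between proliferation and differentiation. The 9 genes described here were named by symbol: Zim1, Peg3, Dlk1, Mest, Plagl1, Cdkn1c, Ndn, Grb10 and H19. Zim1 was selected on its shift between the groups compared below, measured on these same arrays, so its values are a description and carry no test. Of the 9 genes, 8 had a transcript cluster (the group of array probes read as one value) of their own among 22180 genes measured, and the brightest cluster of each was used. H19 had only a cluster that the probe table lists under H19 together with Mir675, and its value is given as that of the shared cluster.

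The arrays profiled whole colon of 4 Ptch1ΔCol1 mice and of 4 controls on a C57BL/6 background, 7 days after 5 mg of tamoxifen (per 25 g of mouse in the labels), in a piece of 1 cm taken 1.5 cm from the anus. Ptch1ΔCol1 mice carried Col1a2CreER and Ptch1fl/fl, so that tamoxifen removed Ptch1, the receptor that holds the Hedgehog (Hh) pathway off, in stromal cells that use the Col1a2 promoter. Ptch1ΔCol1 replicates 1 and 2 also had R26-LSL-tdTomato, a red reporter, and replicate 3 was the only male of the 4. The controls, named wt_ctrl in the labels, lacked Cre. Control replicates 1 and 2 were Ptch1fl/+ and replicates 3 and 4 were R26-tdTomato, and replicate 2 was the only male. The values are log2 RMA values with 2 decimals from arrays of 1 colour, and they compare one gene between mice, not one gene with another. Array medians lay between 4.69 and 4.80. Each array was correlated with the 7 others over all 41345 clusters, and the averages lay between 0.9845 and 0.9869, except for Ptch1ΔCol1 replicate 3 with 0.9793.

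At imprinted loci the mark set in the egg or the sperm, mostly DNA methylation of CpG-rich sequence, decides which parental copy is read, and neighbouring genes often share one mark. Many such genes are busy in fetal tissue and are turned down after birth, with mesenchymal, muscle and fat cells among those that keep some expression. Paternally expressed genes of this kind tend to favour growth and maternally expressed genes to restrain it, although several genes named here break that rule. All mice were on one genetic background and array probes do not separate the parental copies, so every value is a sum over both.

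The sequences before the starts of Zim1, Mest and Peg3 are shown because Zim1 and Mest had the largest differences and Peg3 is the imprinted neighbour of Zim1. They are the 250 bases 5′ of a RefSeq start in build GRCm38.p6, in the direction of transcription. Each CpG, the dinucleotide whose methylation can carry an imprint, is in capitals. Whether the CpG shown here carry one was not measured. The array's own build is not given in the sources used here, and these positions are those of RefSeq.
Zim1, chr7:6696433-6696682, minus strand: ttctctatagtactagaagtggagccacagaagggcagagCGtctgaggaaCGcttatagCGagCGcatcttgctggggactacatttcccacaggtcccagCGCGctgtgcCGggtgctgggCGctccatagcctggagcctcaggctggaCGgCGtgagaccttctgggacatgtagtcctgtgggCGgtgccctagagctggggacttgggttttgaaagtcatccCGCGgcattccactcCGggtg
Mest, chr6:30737800-30738049, plus strand: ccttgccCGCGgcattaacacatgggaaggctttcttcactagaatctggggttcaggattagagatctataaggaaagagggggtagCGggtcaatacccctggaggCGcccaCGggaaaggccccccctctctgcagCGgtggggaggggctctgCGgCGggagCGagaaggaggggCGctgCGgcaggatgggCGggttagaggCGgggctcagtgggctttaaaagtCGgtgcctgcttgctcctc
Peg3, chr7:6730420-6730669, minus strand: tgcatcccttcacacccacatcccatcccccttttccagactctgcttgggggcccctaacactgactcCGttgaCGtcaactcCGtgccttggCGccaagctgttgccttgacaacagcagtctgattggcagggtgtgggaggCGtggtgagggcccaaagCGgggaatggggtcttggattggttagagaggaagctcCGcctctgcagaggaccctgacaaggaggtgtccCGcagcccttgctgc
In the windows of 300 bases that add 50 bases after the start, Zim1 had 20 CpG, Mest 17 (and 8 at another start, whose sequence is not shown) and Peg3 13, against a median of 7.0 over all 32851 windows of the same length in the RefSeq table. The corresponding counts were 26 for Plagl1, 11 for Ndn, 9 for Dlk1, and 45 and 9 at 2 starts of Grb10. The binding motif of Gli factors, GACCACCCA, read on both strands (TGGGTGGTC on the other), was in 0 of the 10 windows of 7 of these genes and in 83 of all 32851 windows (0.253%). No match says only that these letters are not in these windows.

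Both Mest and H19 host a microRNA, and the mature forms are shown because Mir335 had a cluster of its own and Mir675 shares that of H19. The capitals mark the seed, bases 2 to 8, which pairs with targets, and the 4 mature forms have 4 different seeds (RefSeq, GRCm38.p6).
mmu-miR-335-5p: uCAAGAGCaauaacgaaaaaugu
mmu-miR-335-3p: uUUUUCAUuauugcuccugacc
mmu-miR-675-5p: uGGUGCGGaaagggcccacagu
mmu-miR-675-3p: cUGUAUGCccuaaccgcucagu

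Zim1, a zinc finger gene read from the maternal copy, was higher in each Ptch1ΔCol1 mouse than in any control. Its values were 5.73, 6.33, 5.02 and 6.30 in Ptch1ΔCol1 replicates 1 to 4, against 4.14, 4.67, 4.31 and 4.36 in control replicates 1 to 4. The highest control was the male and the lowest Ptch1ΔCol1 mouse was the male, and the gap between the groups lay between these 2 mice. Ptch1ΔCol1 mice averaged 5.84 ± 0.62 and controls 4.37 ± 0.22 (SD, n = 4 each), a log2 fold change of 1.48 or 2.78-fold. It stood at place 8 of 22180 genes by log2 fold change, which is the contrast that chose it. Over all 8 mice its mean level was at percentile 54.9 of all clusters. With each mouse left out in turn the log2 fold change lay between 1.31 and 1.75.

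Peg3, a zinc finger gene that is the paternally read neighbour of Zim1, was higher on average in Ptch1ΔCol1 mice but with overlap. It had 7.38, 7.66, 7.09 and 8.00 in Ptch1ΔCol1 replicates 1 to 4, against 7.05, 7.23, 7.21 and 6.83 in control replicates 1 to 4. The 3 female Ptch1ΔCol1 mice stood above all controls, and the male lay among them. The means were 7.53 ± 0.39 in Ptch1ΔCol1 mice and 7.08 ± 0.19 in controls (SD, n = 4 each), and the log2 fold change was 0.45 (95% interval 0.05 to 0.86). Its adjusted p over all genes in limma was 0.518, and the two-sided exact permutation test over 70 relabellings of the mice gave 0.0857, where 0.0286 is the smallest p it can give. A cluster listed under both Peg3 and Peg3os, its antisense transcript, could not be assigned to one of them. It had 5.38, 5.43, 5.39 and 6.16 in Ptch1ΔCol1 replicates 1 to 4, against 5.26, 5.13, 5.18 and 4.89 in control replicates 1 to 4. Here the groups did not overlap (log2 fold change 0.47, exact permutation p = 0.0286), beside 2.47% of all genes that were higher without overlap. The gap was narrow, between 5.26 and 5.38. Ptch1ΔCol1 replicate 4 was the highest, as for Peg3 itself, and stood well above the others.

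Mest, a gene of the α/β-hydrolase fold family read from the paternal copy and known for its activity in growing mesoderm and fat, had the largest difference after Zim1. Its values were 7.96, 7.68, 6.54 and 7.46 in Ptch1ΔCol1 replicates 1 to 4, against 6.24, 6.34, 6.20 and 6.32 in control replicates 1 to 4. The 4 controls lay within 0.14 log2 units of each other, while the Ptch1ΔCol1 mice ranged over 1.42, with the 3 females high and the male just above the highest control. The means were 7.41 ± 0.62 in Ptch1ΔCol1 mice and 6.28 ± 0.07 in controls (SD, n = 4 each), a log2 fold change of 1.13 (SE 0.25, 95% interval 0.57 to 1.70) or 2.20-fold. Mest did not pass the threshold over all genes (limma, adjusted p = 0.302), and the exact permutation test gave p = 0.0286, the smallest it allows. Without Ptch1ΔCol1 replicate 3 it passed in limma, with a log2 fold change of 1.43 (adjusted p = 0.00898). In females only, which also leaves out that mouse, it passed with 1.45 (adjusted p = 0.0338). Replicate 3 had the lowest Mest value of its group, so the larger difference and smaller spread follow in part from leaving it out. Over 21 alternatives the adjusted p of Mest ranged between 0.00898 and 0.974, and it passed in these 2 only. Mest also stands on a list of top-ranked genes that the study drew from these arrays, and the direction given here adds no independent evidence to it.

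**Figure D1:**
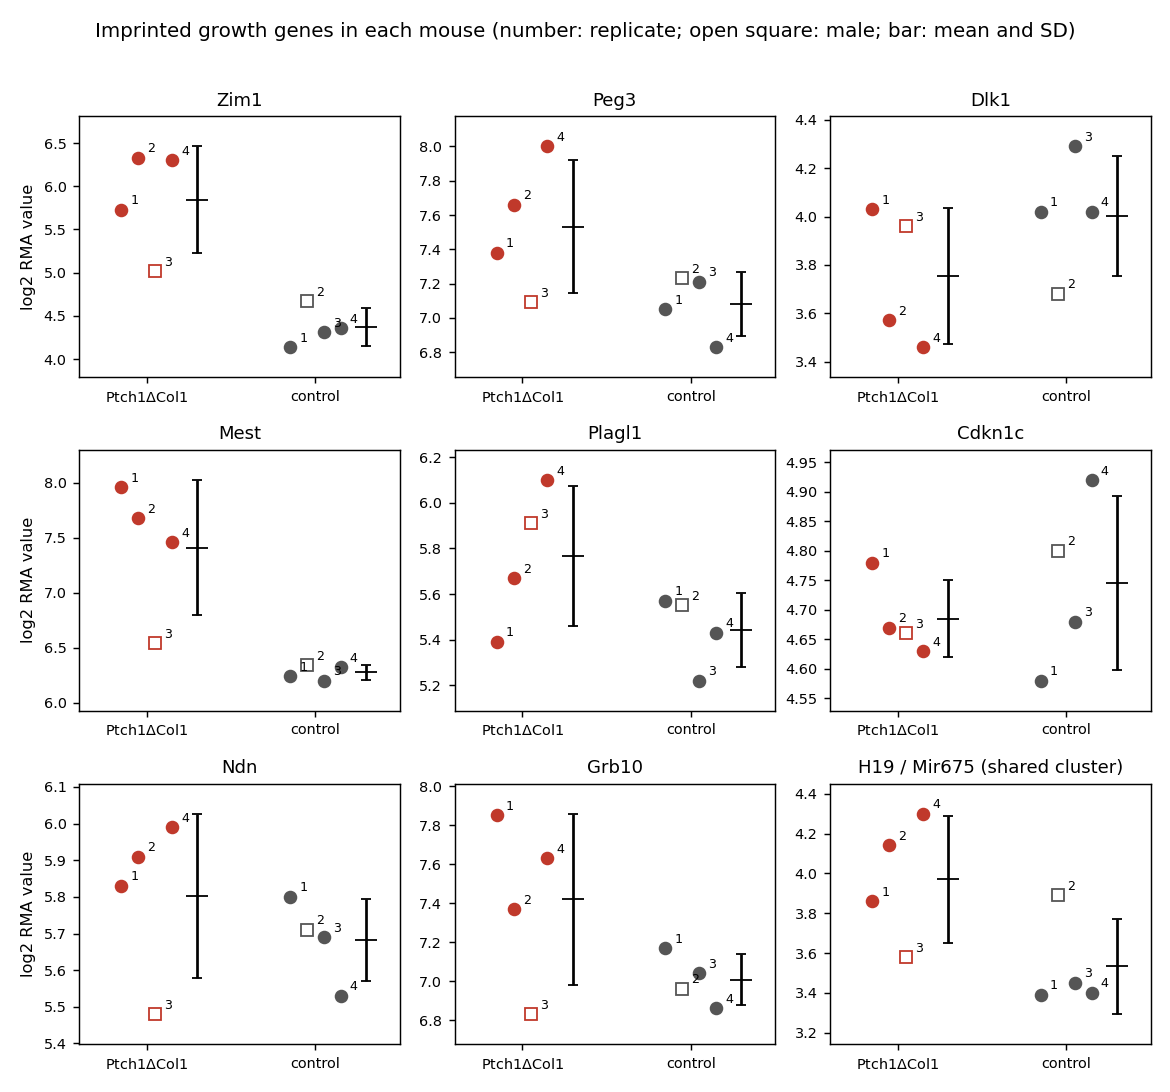
Log2 RMA value (y axis) of 8 imprinted growth genes and of the shared H19 and Mir675 cluster in each Ptch1ΔCol1 mouse (red) and each control (grey), with the replicate number beside each point, open squares for males and bars for the mean ± SD of 4 mice. Zim1 and Mest show no overlap, with log2 fold changes of 1.48 and 1.13, and in both the open red square of Ptch1ΔCol1 replicate 3 is the lowest of its group.

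Grb10, an adaptor protein that dampens signalling of the insulin and IGF receptors and is read from the maternal copy in most tissues, was higher on average with overlap of the groups. Its values were 7.85, 7.37, 6.83 and 7.63 in Ptch1ΔCol1 replicates 1 to 4, against 7.17, 6.96, 7.04 and 6.86 in control replicates 1 to 4. As with Peg3, the 3 Ptch1ΔCol1 females were above every control and the male was not. The difference was 0.41 log2 units (95% interval -0.02 to 0.84; means 7.42 ± 0.44 in Ptch1ΔCol1 mice and 7.01 ± 0.13 in controls, SD, n = 4 each), with an adjusted p of 0.562 in limma and an exact permutation p of 0.171. Without Ptch1ΔCol1 replicate 1 it was 0.27.

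Among the genes known to hold growth back, Plagl1, a zinc finger transcription factor (Zac1) read from the paternal copy that slows the cell cycle, had 5.39, 5.67, 5.91 and 6.10 in Ptch1ΔCol1 replicates 1 to 4, against 5.57, 5.55, 5.22 and 5.43 in control replicates 1 to 4. The female replicate 1 lay within the controls and the other 3 Ptch1ΔCol1 mice above them, so that here the male was not the low one. The log2 fold change was 0.33 (95% interval -0.01 to 0.66; limma, adjusted p = 0.562; exact permutation p = 0.143), and 0.21 without Ptch1ΔCol1 replicate 4. A second Plagl1 cluster, at percentile 2.02 of all clusters and thus near the floor of the array, differed by 0.16 (limma, adjusted p = 0.594).

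Ndn, or necdin, a protein of the MAGE family read from the paternal copy and linked to growth arrest of neurons, had 5.83, 5.91, 5.48 and 5.99 in Ptch1ΔCol1 replicates 1 to 4, against 5.80, 5.71, 5.69 and 5.53 in control replicates 1 to 4. The 3 Ptch1ΔCol1 females were marginally above all controls and the male was below all of them. Its log2 fold change was 0.12 (95% interval -0.15 to 0.39; limma, adjusted p = 0.782; exact permutation p = 0.4), and between 0.06 without Ptch1ΔCol1 replicate 4 and 0.23 without Ptch1ΔCol1 replicate 3.

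Cdkn1c, which encodes the maternally read cyclin-dependent kinase inhibitor p57Kip2, lay in a narrow band: 4.78, 4.67, 4.66 and 4.63 in Ptch1ΔCol1 replicates 1 to 4, against 4.58, 4.80, 4.68 and 4.92 in control replicates 1 to 4. All 4 Ptch1ΔCol1 values lay inside the range of the controls. The log2 fold change was -0.06 (95% interval -0.27 to 0.15; limma, adjusted p = 0.873; exact permutation p = 0.514), so that a change as large as that of Mest lies outside the interval.

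Dlk1, a paternally read membrane protein with EGF repeats that restrains the maturation of fat cells, was dim, at percentile 35.4 of all clusters. It had 4.03, 3.57, 3.96 and 3.46 in Ptch1ΔCol1 replicates 1 to 4, against 4.02, 3.68, 4.29 and 4.02 in control replicates 1 to 4. The groups overlapped, with the male control and the female Ptch1ΔCol1 replicates 2 and 4 at the low end. The log2 fold change was -0.25 (95% interval -0.61 to 0.12; limma, adjusted p = 0.663; exact permutation p = 0.229), and -0.15 without Ptch1ΔCol1 replicate 4 or without control replicate 3.

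The cluster that H19, a maternally read long non-coding RNA, shares with Mir675 was dim as well, at percentile 33.0. It had 3.86, 4.14, 3.58 and 4.30 in Ptch1ΔCol1 replicates 1 to 4, against 3.39, 3.89, 3.45 and 3.40 in control replicates 1 to 4. The groups overlapped through the male control, which lay above Ptch1ΔCol1 replicates 1 and 3 while the female controls lay below all Ptch1ΔCol1 mice. The means were 3.97 ± 0.32 in Ptch1ΔCol1 mice and 3.53 ± 0.24 in controls (SD, n = 4 each; log2 fold change 0.44, exact permutation p = 0.0857).

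Across the measured genes other than Zim1, 5 were higher and 2 lower in Ptch1ΔCol1 mice, with a median log2 fold change of 0.33, beside a median of -0.01 over all 22180 genes, of which 10415 were higher and 11597 lower. None of the 7 passed the threshold of 0.05 on the adjusted p in limma, which 4 genes passed as higher (0.018% of all) and 2 as lower (0.00902%). At an unadjusted p below the same threshold there were 2 of 7, Peg3 and Mest, beside 9.22% of all genes. Without overlap of the groups there was 1 of 7, Mest, beside 2.47% of all genes in this direction. With 4 mice in each group, differences of the size seen for Peg3, Grb10 and Plagl1 were not separated from the spread between mice after adjustment over all genes.

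The spread among the Ptch1ΔCol1 mice was looked at mouse by mouse. In 5 of the 8 genes (Zim1, Peg3, Mest, Ndn and Grb10) replicate 3, the male and the array with the lowest correlation to the others, was the lowest of the Ptch1ΔCol1 mice, beside 24.7% of all genes. The lowest was replicate 4 for Dlk1 and Cdkn1c and replicate 1 for Plagl1. Replicate 1 was the highest in 4 genes (Dlk1, Mest, Cdkn1c and Grb10), replicate 4 in 3 (Peg3, Plagl1 and Ndn) and replicate 2 in 1 (Zim1). The range among Ptch1ΔCol1 mice exceeded that among controls in 6 of the 8 genes, a share near the 67.3% of all genes.

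Among females alone, the 3 Ptch1ΔCol1 mice lay above the 3 controls without overlap in 4 of the 7 genes other than Zim1. These were Peg3, Mest, Ndn and Grb10, beside 6.74% of all genes. Zim1, which was chosen for such a shift, did likewise. The comparison leaves out replicate 3, already seen as the lowest Ptch1ΔCol1 mouse in each of these genes. The lack of overlap follows in part from that, so the count is a description only. The female means were 6.12 in Ptch1ΔCol1 mice against 4.27 in controls for Zim1, 7.70 against 6.25 for Mest, 7.68 against 7.03 for Peg3, 7.62 against 7.02 for Grb10 and 5.91 against 5.67 for Ndn. The only male of each genotype stood closer together, with 5.02 in the Ptch1ΔCol1 male against 4.67 in the control male for Zim1 and 6.54 against 6.34 for Mest. For Peg3, Grb10 and Ndn the order turned, with 7.09 in the Ptch1ΔCol1 male against 7.23 in the control male, 6.83 against 6.96, and 5.48 against 5.71. The interaction of group and sex, tested in limma after these values had been seen, was -1.25 for Mest (male minus female log2 fold change, SE 0.27, adjusted p = 0.142), -0.79 for Peg3 (adjusted p = 0.403), -0.72 for Grb10 (adjusted p = 0.365) and, with the opposite sign, 0.70 for Dlk1 (adjusted p = 0.433). None of the 7 genes tested passed, beside 8 of all genes (0.0361%). Each genotype had 1 male, so that the spread in this test comes from the females alone and a male is assumed to vary as they do. Sex and the array that stood apart cannot be told apart, since the only Ptch1ΔCol1 male is that array.

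**Figure D2:**
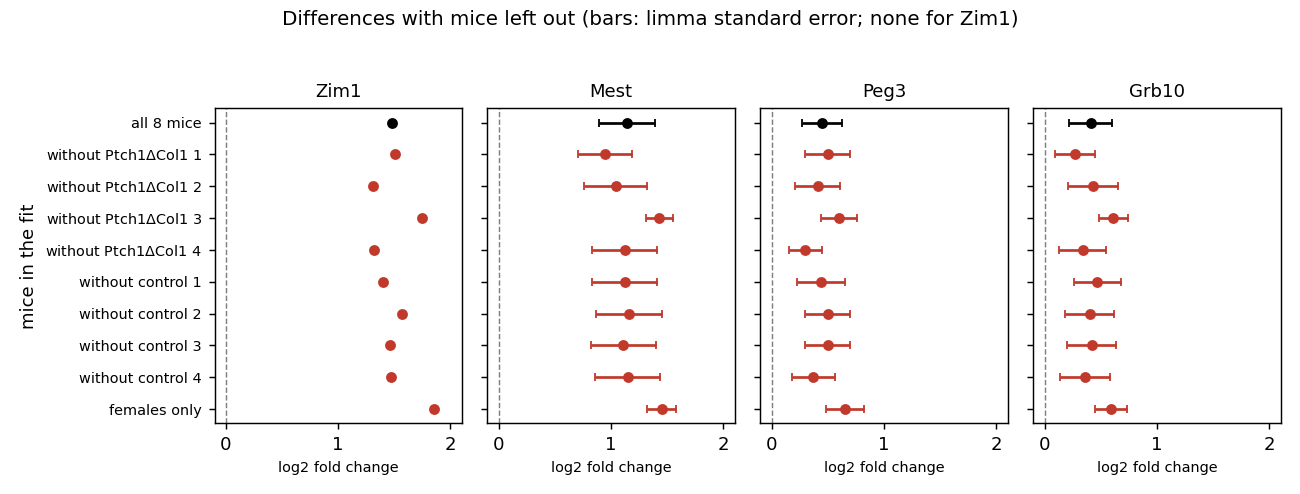
Log2 fold change of Ptch1ΔCol1 mice over controls (x axis) for Zim1, Mest, Peg3 and Grb10 with all 8 mice (black) and with the mice named on the y axis left out or females only (red), with bars for the limma standard error, none for Zim1. Every point lies above 0, and without Ptch1ΔCol1 replicate 3 the Mest value is 1.43 with a narrower error.

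Imprinted genes sit in clusters, and the neighbours of these genes were set beside them. Of 32 listed neighbours in the same imprinted domains 24 were measured, of which 13 were higher and 11 lower in Ptch1ΔCol1 mice, with a median log2 fold change of 0.02 and none past the threshold in limma. In the domain of Zim1 and Peg3 the only measured neighbour, Usp29, a deubiquitinase gene, had 3.48, 3.47, 3.70 and 3.58 in Ptch1ΔCol1 replicates 1 to 4 and 4.00, 3.57, 3.67 and 3.66 in control replicates 1 to 4, with overlap (log2 fold change -0.17, adjusted p = 0.66). In the domain of Mest the 3 neighbours differed little. Copg2, a coat protein gene beside Mest, had a log2 fold change of 0.01 (95% interval -0.22 to 0.24), the transcription factor gene Klf14 had 0.05 (-0.20 to 0.30) and the carboxypeptidase gene Cpa4 had -0.26 (-0.59 to 0.06). The differences of Zim1 and Mest thus had no counterpart of their size in the measured neighbours. Of these, Usp29, Cpa4 and Klf14 were dim, at percentiles 30.9, 36.5 and 41.0 of all clusters, where a shift may not show. Copg2 was bright, at percentile 91.8.

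Dio3, the deiodinase gene that inactivates thyroid hormone at the far end of the Dlk1 domain, was the only one of the 24 measured neighbours whose groups did not overlap, a share near the 2.47% of all genes that were higher without overlap and the 2.9% that were lower. It had 3.92, 3.60, 3.76 and 3.65 in Ptch1ΔCol1 replicates 1 to 4, against 3.22, 3.37, 3.39 and 3.28 in control replicates 1 to 4, and the male was not the low one. Its log2 fold change was 0.42 (SE 0.09; limma, adjusted p = 0.302; exact permutation p = 0.0286) at a dim level. The other measured transcripts of that domain, the maternally read non-coding RNAs Rian and Meg3, had 0.21 (adjusted p = 0.706) and 0.07 (adjusted p = 0.886), and brighter clusters that Meg3 shares with Mir770 and with Mir1906 had 0.31 (exact permutation p = 0.171) and 0.10.

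Around Cdkn1c and H19 all 9 listed neighbours were measured, with 3 higher, 6 lower and a median of -0.08. The 4 with the smallest p were Tssc4 at 0.23 (95% interval 0.01 to 0.46), the non-coding RNA Kcnq1ot1 at -0.29 (-0.58 to 0.00), Igf2 at -0.21 (-0.42 to 0.01) and the potassium channel gene Kcnq1 at -0.16 (-0.48 to 0.16), with adjusted p between 0.536 and 0.758 in limma. Igf2, the fetal growth factor whose enhancers H19 shares, had 5.67, 5.46, 5.64 and 5.31 in Ptch1ΔCol1 replicates 1 to 4, against 5.80, 5.73, 5.67 and 5.71 in control replicates 1 to 4. These overlap only at 5.67, and the direction is opposite to that of the shared H19 and Mir675 cluster (exact permutation p = 0.0571 for Igf2).

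Around Ndn 5 of 7 listed neighbours were measured, with 3 higher, 2 lower and a median of 0.04. Peg12 had a log2 fold change of -0.38 (95% interval -0.94 to 0.18) and the ubiquitin ligase gene Ube3a -0.20 (-0.45 to 0.04). The 3 measured neighbours of Grb10 and Plagl1 were within 0.19 of no difference, the largest being Phactr2 (95% interval -0.03 to 0.41). The neighbour lists do not hold every gene of these domains. Outside the lists, 13 genes listed as paternally read had 7 higher and 6 lower, with a median of 0.04. Of 13 genes listed as maternally read 8 were higher and 5 lower, with a median of 0.06. Whether any of these genes is read from a single copy in colon was not measured. The genes with the smallest p among them were Asb4 at 0.41 (adjusted p = 0.5), Osbpl5 at -0.22 (adjusted p = 0.542), Impact at 0.21 (adjusted p = 0.553) and Sfmbt2 at -0.27 (adjusted p = 0.566). In all, 50 of 60 other imprinted genes listed were measured, their log2 fold changes lay between -0.38 and 0.42, and 1 of the 50, Dio3, did not overlap between the groups, which is no larger a share than among all genes (2.47% higher and 2.9% lower).

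**Figure D3:**
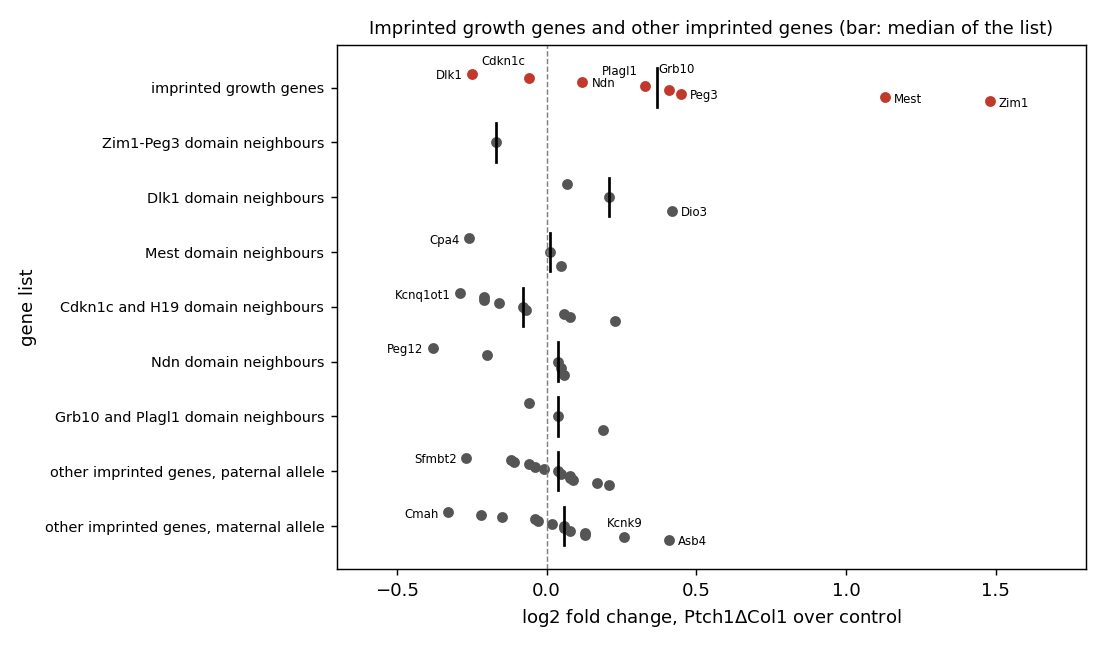
Log2 fold change of Ptch1ΔCol1 mice over controls (x axis) for the 8 measured imprinted growth genes (red) and for other genes listed as imprinted (grey), 1 point a gene. The grey genes are grouped by domain or by the copy they are listed under. A bar marks the median of each list (0.37 in the first row, Zim1 included). Mest and Zim1 lie to the right of all other points, and no grey point lies beyond 0.42.

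Of 11 listed microRNAs that the genes or the Dlk1 domain host, 5 had a cluster of their own, all near the floor of the array. Mir335, whose 2 mature forms are shown above and which lies in an intron of Mest, had 2.91, 3.31, 3.20 and 3.31 in Ptch1ΔCol1 replicates 1 to 4, against 3.17, 3.23, 3.28 and 3.17 in control replicates 1 to 4. The groups overlapped (log2 fold change -0.03, 95% interval -0.26 to 0.20; limma, adjusted p = 0.95), so that its host's shift had no counterpart at this cluster. Mir370 of the Dlk1 domain had the largest difference of the 5, 0.27 (adjusted p = 0.596).

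The pathway that the genotype acts on was shifted in the same mice. Gli1, the transcription factor that Hh signalling induces, had 6.42, 6.36, 6.36 and 6.37 in Ptch1ΔCol1 replicates 1 to 4, against 4.94, 5.12, 5.20 and 4.81 in control replicates 1 to 4 (log2 fold change 1.36; limma, adjusted p = 0.00203). Its 4 Ptch1ΔCol1 values were level. Hhip, which binds and sequesters Hh ligands, had 9.57, 9.13, 9.05 and 10.17 in Ptch1ΔCol1 replicates 1 to 4, against 7.60, 7.88, 7.56 and 7.53 in control replicates 1 to 4 (log2 fold change 1.84; limma, adjusted p = 0.0431). Ptch1 itself had a log2 fold change of 0.81 (limma, adjusted p = 0.139) without overlap, beside 2.47% of all genes. Per the study's notes its floxed allele still makes mRNA. All 7 measured Hh targets of 8 listed were higher in Ptch1ΔCol1 mice, beside 47.0% of all genes, with a median of 0.81. Past the threshold were 2 of them, beside 0.018% of all genes. Replicate 3, low in Zim1 and Mest, was the lowest Ptch1ΔCol1 mouse in Hhip, in Ptch1 (9.19) and in the mean over the Hh targets. That mean was 7.86, 7.43, 7.40 and 7.98 in Ptch1ΔCol1 replicates 1 to 4, against 6.69, 6.97, 6.83 and 6.60 in control replicates 1 to 4. Replicate 2, the highest in Zim1, was nearly as low, with 9.13 in Hhip and 9.21 in Ptch1. In Gli2, Foxf1 and Foxl1 replicate 3 was also the lowest, but in Foxf2 it had 6.54, against 6.19 in replicate 2. The part of Hh activity in the low values of replicate 3 was not tested. The call of Hhip was lost in 12 of 21 alternatives and that of Gli1 in 1.

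Grb10 and H19 touch IGF signalling, and Cdkn1c belongs to a family of cell cycle inhibitors. Of 11 measured genes of the IGF axis 5 were higher and 6 lower, with a median of -0.03 and 0 past the threshold in limma. Igf1, the main postnatal growth factor of the axis, had a log2 fold change of 0.50 (95% interval -0.03 to 1.03), the binding protein gene Igfbp3 -0.47 (-1.09 to 0.15) and the insulin receptor gene Insr -0.14 (-0.34 to 0.07). Of 6 inhibitors of the Cip/Kip and INK4 families, Cdkn2b was lower without overlap, with 9.21, 9.28, 9.31 and 9.21 in Ptch1ΔCol1 replicates 1 to 4 and 9.44, 9.42, 9.46 and 9.53 in control replicates 1 to 4. That difference was small, -0.21 (limma, adjusted p = 0.462; exact permutation p = 0.0286), beside 2.9% of all genes that were lower without overlap. Cdkn2c had 0.34 (adjusted p = 0.584) and Cdkn2d 0.16 (adjusted p = 0.628).

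Whole colon mixes cell types, and in such tissue fewer cells of a type and less RNA per cell cannot be told apart. The colonocyte markers were among the brightest genes, with list means between 12.08 and 12.27 in Ptch1ΔCol1 mice and between 12.11 and 12.14 in controls, and the smooth muscle means lay between 11.18 and 11.32 in Ptch1ΔCol1 mice and between 10.96 and 11.13 in controls. All 8 smooth muscle markers were higher in Ptch1ΔCol1 mice, with a median of 0.14, where 47.0% of all genes were higher, and 3 of them did not overlap between the groups, beside 2.47% of all genes. Fibroblast markers, of the stromal cells in which the Cre acts, had means between 8.84 and 9.62 in Ptch1ΔCol1 mice and between 9.04 and 9.32 in controls, with 5 of 9 higher and a median of 0.10. The part of these lists in the differences of Zim1 and Mest was not tested.

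Fat is a known site of Mest expression. All 7 measured adipocyte markers of 8 listed were higher on average in Ptch1ΔCol1 mice, where 47.0% of all genes were higher. Their median was 0.41, and none passed the threshold in limma. The adipocyte list means were 7.77, 7.53, 6.83 and 7.40 in Ptch1ΔCol1 replicates 1 to 4, against 7.37, 7.27, 6.66 and 6.79 in control replicates 1 to 4. Among Ptch1ΔCol1 mice the order of these means, with replicate 1 highest, then replicates 2, 4 and 3, was that of Mest. This order was not particular to fat. It also held for the enteric neuron list means (6.91, 6.74, 6.48 and 6.67 in Ptch1ΔCol1 replicates 1 to 4). The means of the genes listed as maternally read outside the neighbour lists had it too (6.56, 6.44, 6.20 and 6.32). Among controls the adipocyte means lay between 6.66 and 7.37 and Mest between 6.20 and 6.34. The part of fat in the difference of Mest was not tested. Skeletal muscle markers, whose tissue also uses several imprinted genes, had means of 4.63, 4.56, 4.92 and 4.54 in Ptch1ΔCol1 replicates 1 to 4, against 4.45, 4.56, 4.58 and 4.50 in control replicates 1 to 4, and their part in these differences was not tested.

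Replicate 3 also stood apart in several markers. Among Ptch1ΔCol1 mice it had the lowest mean of the fibroblast (8.84), adipocyte (6.83), endothelial (7.30), enteric glia (5.40), enteric neuron (6.48) and B cell (4.74) lists. It had the highest mean of the smooth muscle (11.32), skeletal muscle (4.92) and colonocyte (12.27) lists. Its fibroblast and endothelial means were below those of all controls (9.04 to 9.32 and 7.81 to 8.17), as was its B cell mean. B cell means lay between 4.74 and 6.14 in Ptch1ΔCol1 mice and between 5.59 and 7.08 in controls, with all 4 measured markers lower in Ptch1ΔCol1 mice. The part of these cell types in the low values of Zim1, Peg3, Mest, Ndn and Grb10 in that mouse was not tested.

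**Figure D4:**
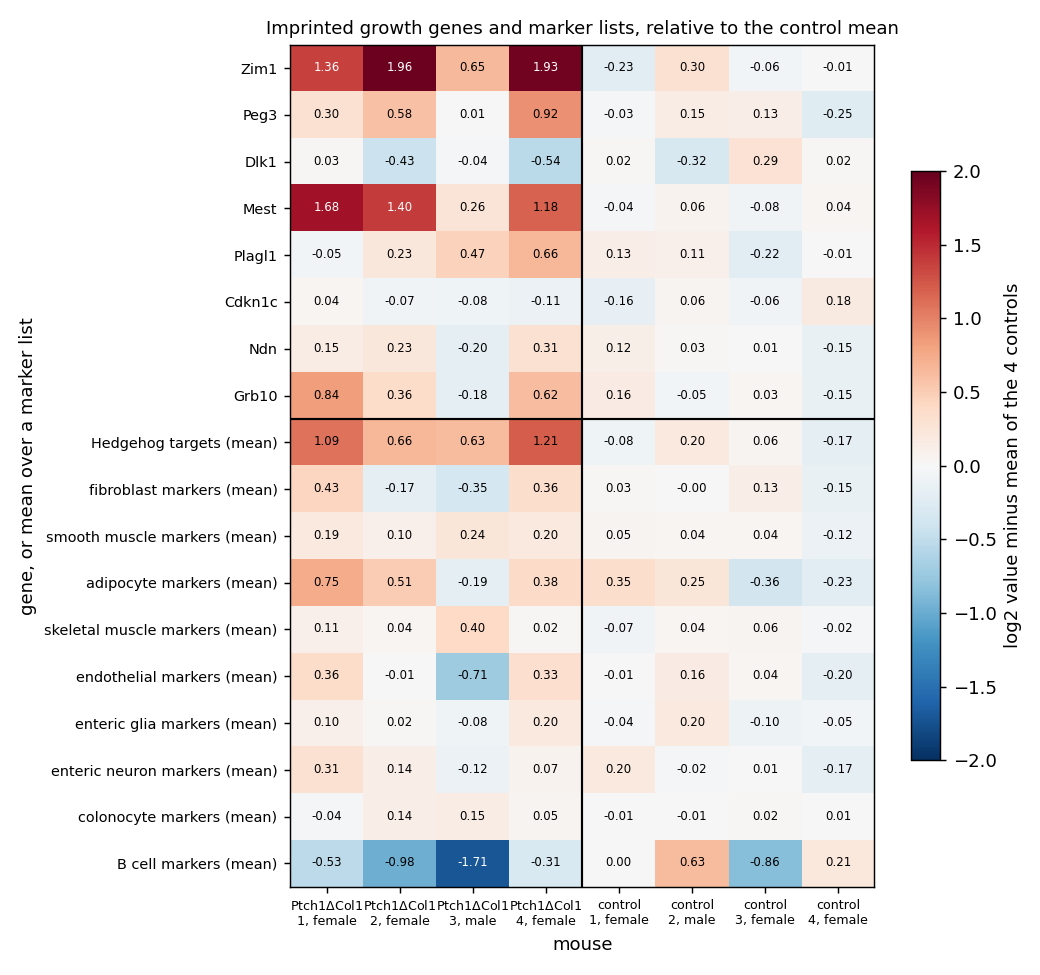
Log2 value of each of the 8 measured imprinted growth genes, and the mean over each marker list, minus the mean of the 4 controls (colour, log2 units) in each mouse (columns). Zim1 and Mest are red in the 3 Ptch1ΔCol1 females and paler in the male (replicate 3), where the endothelial and B cell rows are bluest, while the 4 controls stay pale in every gene row.

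The genes whose values followed Zim1 and Mest most closely within the groups were sought among 12552 genes with a mean of at least 5, by Pearson's r of the deviations from the group means over 8 arrays. For Zim1 these were Cenpi (r = 0.98), Cntnap1 (r = 0.98) and Trim2 (r = 0.97), and for Mest Fxyd5 (r = 0.99), Bace1 (r = 0.99) and Ncf4 (r = 0.98). None of the 6 shared the shift between the groups, with log2 fold changes between -0.21 and 0.26, against 1.48 for Zim1 and 1.13 for Mest. The arrays share replicate 3 as an extreme, and without it, over 7 arrays, r was 0.93, 0.93 and 0.90 for Zim1 and 0.95, 0.96 and 0.85 for Mest. They are the closest of all genes searched over few mice and are given as a description.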

How the data were processed

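Colonic RNA from 4 Ptch1ΔCol1 mice and 4 controls was hybridised to Affymetrix Mouse Gene ST 2.0 arrays. RMA with median polish was applied by the authors, who deposited log2 values rounded to 2 decimals, and these were used unchanged. Which software and annotation were used is not stated in the sources at hand. Of 41345 transcript clusters 23521 had 1 symbol in the platform annotation, 1820 had several and 16004 none, and 23328 were matched to RefSeq (GRCm38.p6) by gene ID. For each of 22180 genes the brightest cluster was tested with limma (version 3.58.1, R 4.3.3), after a trial on simulated data, and p-values were adjusted over all genes by Benjamini-Hochberg at a threshold of 0.05. Exact permutation tests of single genes used the 70 relabellings of the 8 mice and were two-sided (scipy 1.17.1). Each array is 1 animal, so that the spread is between animals, and 4 in a group limit the precision.

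The genes and lists were chosen with earlier results of these data known. The named genes are the 9 growth genes, up to 4 of each domain list and up to 3 of each other list by smallest p, Ptch1, Gli1 and Hhip, and the 3 genes most like Zim1 and Mest. The gene table was also built from the mean of clusters, from every cluster, or without dim genes (below percentile 40). Values were quantile normalized or median centred instead, the variance was modelled as trended and robust, or arrays were weighted. Models added sex, the reporter or a replicate block, where R26-LSL-tdTomato and R26-tdTomato were counted as the same reporter, which the labels do not state. Mice were restricted to females, to either kind of control, or to 7 of 8. The interaction with sex and the likeness without Ptch1ΔCol1 replicate 3 were added after the data were seen. RefSeq sequences were matched by symbol: 7 of the 9 genes had a promoter window, and windows of Cdkn1c and H19 were not used here.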

Additional observations from a re-analysis of the deposited data

Results flagged for a closer look

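Of 70 groups of 4 mice examined, over 35 named genes and clusters, 5 held a mouse far from the other 3 by Dixon's criterion, where chance gives about 1 in 20 groups. The shared H19 and Mir675 cluster had 3.89 in control replicate 2, the male, against 3.39 to 3.45 in the other controls. The shared Peg3 and Peg3os cluster had 6.16 in Ptch1ΔCol1 replicate 4, against 5.38 to 5.43 in the other Ptch1ΔCol1 mice. Copg2, the neighbour of Mest, had 9.25 in control replicate 2, against 9.39 to 9.40 in the other controls. Osbpl5, a gene listed as maternally read, had 7.94 in Ptch1ΔCol1 replicate 1, against 7.60 to 7.65 in the other Ptch1ΔCol1 mice. Gli1 had 6.42 in Ptch1ΔCol1 replicate 1, against 6.36 to 6.37 in the others. Dixon's criterion is relative to the range of the 4 mice, so where the values are nearly level, as here, a small gap meets it. No measured imprinted growth gene with a cluster of its own met this criterion.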

How the results depend on the processing

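No measured imprinted growth gene changed direction in any alternative run. For Zim1, whose 21 values are counted below, this is a description only. It was chosen for its shift and carries no test, so no side of the threshold is read for it. Over 30 named genes and 21 alternatives, 597 of 621 values kept their direction and side of the threshold, 13 were no longer past it (12 of Hhip, 1 of Gli1 with R26-tdTomato controls only), 4 passed it newly (2 of Mest, 2 of Ptch1) and 7 turned direction. Those were Copg2 with array weights (-0.02), in females only (-0.10), with R26-tdTomato controls (-0.02), without Ptch1ΔCol1 replicate 3 (-0.06) and without control replicate 2 (-0.02), and Klf14 with R26-tdTomato controls (-0.07) and without control replicate 1 (-0.03), against 0.01 for Copg2 and 0.05 for Klf14 as reported (with each mouse left out in turn -0.06 to 0.09 for Copg2 and -0.03 to 0.12 for Klf14). The count of genes past the threshold, 4 higher and 2 lower as reported, was 10 higher with median centring, 9 with a trended and robust variance, 1 with sex in the model, 2 with the reporter allele, 1 with Ptch1fl/+ controls and 0 with R26-tdTomato controls. The count of lower genes was 1 with the mean of clusters, 1 with quantile normalization, and 0 with sex, the reporter allele, females only or either kind of control. With array weights 6 genes were higher, and in females only 3. With each mouse left out in turn there were 1 to 10 genes higher and 0 to 2 lower, with 10 and 2 without Ptch1ΔCol1 replicate 3. Of the imprinted growth genes other than Zim1, 1 (Mest) passed in females only, and 0 to 1 with each mouse left out, the 1 being Mest without Ptch1ΔCol1 replicate 3. Both runs leave out that mouse, the lowest of its group in Mest. The causes were not tested. With the replicate number as a block 2 genes were higher and 1 lower, but same-numbered mice did not deviate together (correlations of 0.03, -0.01, -0.05 and -0.02), so the numbers are not taken to pair the mice, and the block changed no call of an imprinted growth gene.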
